A study of Mus musculus with 10 samples.

Results

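The genes of the proteasome were followed in whole hearts of mouse embryos that were mosaic for the loss of Hccs. A member was any gene whose symbol in the platform annotation is Psm, a letter from a to g, and a number, and that has a probe set carrying no other symbol. There were 47 such genes among the 18193 genes measured, covered by 100 probe sets. Each gene was represented by its brightest probe set, by mean of the 10 arrays, and 21 members had 1 probe set only. Psme2, whose probe set carries a second symbol, was not analysed here. RNA came from female embryos at 13.5 days post coitum, with 5 pools of heterozygous heart-conditional Hccs knockouts and 5 pools of control littermates. Each pool held 4 to 5 hearts of 1 genotype and went on 1 Affymetrix array. The sources used here name no Cre driver, no strain and no alleles of the controls. Values are log2 probe set signals, changes are knockout minus control, and errors are the standard error (SE) of the limma fit. A gene passed at a limma p under 0.05 after Benjamini-Hochberg adjustment over all 18193 genes.

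The 26S proteasome is the main machine that degrades proteins tagged with ubiquitin. Its 20S core is a barrel of alpha rings, which gate the entry, and beta rings, which hold the catalytic sites. A 19S cap of ATPases and non-ATPases binds, unfolds and feeds in the substrate. In heart muscle it takes part in the quality control of contractile proteins. The transcription factor Nfe2l1 is known to raise proteasome genes together when the enzyme is inhibited, and interferon is known to exchange catalytic beta subunits for immune forms.

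Hccs, the X-linked haem lyase of the mitochondrial c-type cytochromes, was checked first. Its signals were 11.11, 11.31, 11.28, 11.20 and 11.25 in control replicates 1 to 5, and 10.81, 10.73, 10.90, 10.57 and 10.39 in knockout replicates 1 to 5. All knockout pools lay below all controls, and the change was -0.55 (SE 0.090, limma adjusted p = 0.0225). The call was lost, at a change of -0.56 to -0.52, without control replicate 2 or 3 (adjusted p = 0.0511 each) and without knockout replicate 2 or 4 (0.0517 and 0.0563). Array medians lay between 3.65 and 3.76. The 18S ribosomal RNA 5' control was lower in knockouts (10.05 ± 1.25 against 8.17 ± 0.35, mean ± SD, n = 5 each, exact two-sided permutation p = 0.0238). The 3' and middle 18S controls differed by -0.78 (p = 0.222) and -0.96 (p = 0.0794) in the same exact test, and the part of this RNA in the results was not tested. The Gapdh array controls were lower in every knockout than in any control (5' means 15.94 in controls and 15.82 in knockouts). So was the 3' beta-actin control (means 15.85 and 15.62), while the 5' and middle beta-actin controls overlapped. These Gapdh and beta-actin differences were not tested. All 7 cardiomyocyte markers were bright, and their mean signal ran from 14.56 to 14.66 in controls and from 14.22 to 14.40 in knockouts. All 7 changes were negative, and 2 of the 7 fell: Myh7, a myosin heavy chain (-0.47, limma adjusted p = 0.0250), and Nkx2-5, a cardiac transcription factor (-0.78, adjusted p = 0.0108). Of 5 fibroblast markers 1 rose, Tcf21 (0.61, adjusted p = 0.0376), with all knockouts above the controls, though the list mean overlapped (12.33 to 12.62 in controls, 12.37 to 12.60 in knockouts). These 5 changes were 3 positive and 2 negative, the lowest that of Col1a1 (-0.31, adjusted p = 0.244). All 4 epicardial markers had a positive change and none passed, with a mean from 9.80 to 10.14 in controls and from 9.95 to 10.41 in knockouts. The mean of 7 macrophage and leukocyte markers ran from 7.14 to 7.51 in controls and from 7.17 to 7.59 in knockouts. The endothelial (9.79 to 10.01 against 9.72 to 9.91), smooth muscle (10.81 to 11.51 against 11.08 to 11.23) and erythroid (13.02 to 13.99 against 12.98 to 13.54) means overlapped too. Of 5 endothelial changes 3 were positive and 2 negative, those of Kdr (-0.46, limma adjusted p = 0.0881) and Cdh5 (-0.29, 0.129), and none passed. The part of these lists in the results was not tested. In whole hearts, fewer cells of a type and less RNA per cell cannot be told apart.

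Most proteasome genes did not pass the test. Psmb4 and Psmc4 rose, each in 1 of its 2 bright probe sets, no member fell, and 45 of 47 did not pass. Of all genes, 2.58% were called, 1.63% higher and 0.945% lower. The 2 members are too few to set against this share, and the probe set that stands for Psmb4 was its brightest only through its knockout signals. With probe sets chosen on the control arrays 0 members passed (Psmc4 adjusted p = 0.0501). A limma p under 0.05 before adjustment was reached by 11 members in the higher and 2 in the lower direction, 27.7% of the members against 20.6% of all genes (13.2% higher, 7.48% lower). The members are bright, and among the 3648 brightest genes that share was 33.3%, above that of the members. The median log2 change of the members was 0.017, beside 0.025 for all genes, and 27 of the 47 changed by less than 0.1. The median SE was 0.060. Groups did not overlap for Psmc2, Psmc4 and Psmc6, each with knockouts above, which is 6.38% of the members where 5.79% of all genes had separate groups, 3.86% with knockouts above and 1.92% below. Of the 3648 brightest genes, 9.98% had separate groups. The balance of signs depended on the scaling: 29 members (61.7%, beside 60.5% of all genes and 49.4% of the 3648 brightest) had a positive change as deposited, 23 after quantile normalization and 33 after median centring.

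**Figure D1:**
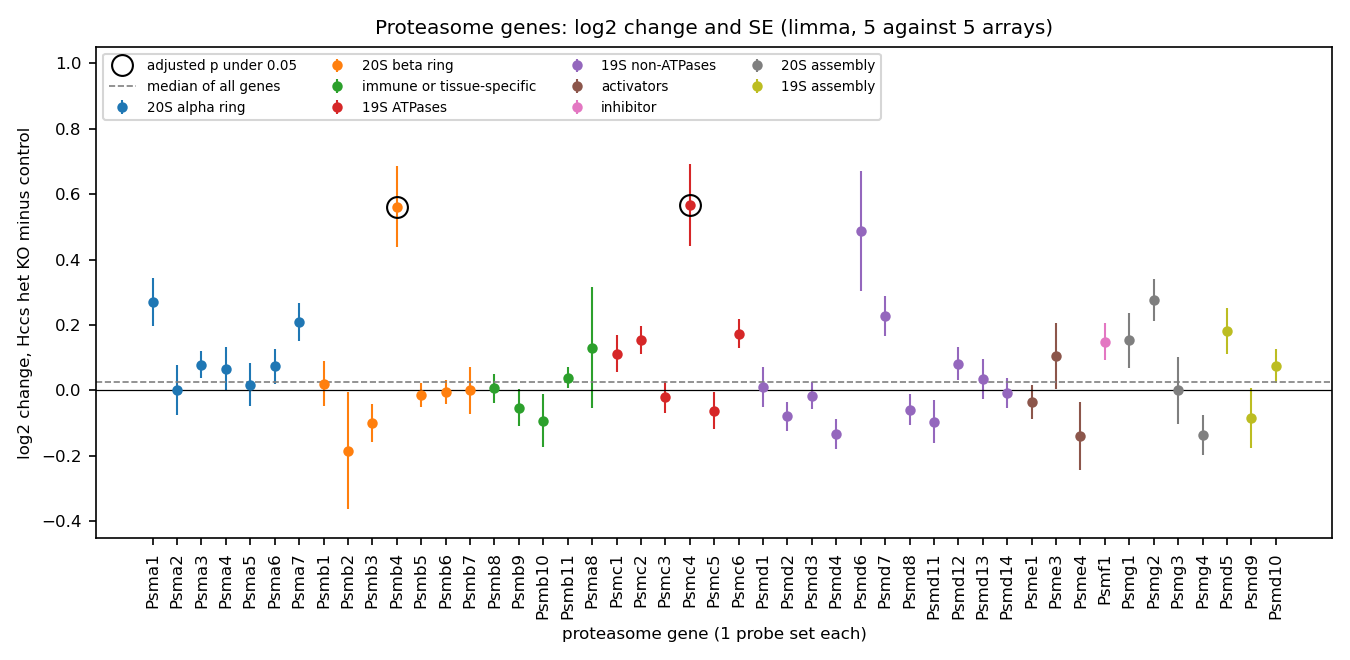
Log2 change of each of the 47 proteasome genes (vertical axis, Hccs heterozygous knockout minus control, n = 5 arrays each), with bars of 1 SE and colours by role. Psmb4 and Psmc4, ringed, passed an adjusted p of 0.05, and most of the others lie near the dashed median of all genes at 0.025.

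Promoters are shown for 4 genes on which the results turn. Psmb4 and Psmc4 passed, Psmc6 had a dimmer probe set that passed, and Psmb5 is a steady catalytic subunit. RefSeq promoters (GRCm38.p6, from 250 bases before to 50 after the start) were matched by symbol for 39 of the 47 members. Sequences run 5' to 3', and capitals mark TGACNNNGC, the core of the antioxidant response element that Nfe2l1 and Nfe2l2 bind, or CCGGAAG, a motif of ETS factors, on either strand.
Psmb4 promoter, chr3:94886909-94887208, minus strand: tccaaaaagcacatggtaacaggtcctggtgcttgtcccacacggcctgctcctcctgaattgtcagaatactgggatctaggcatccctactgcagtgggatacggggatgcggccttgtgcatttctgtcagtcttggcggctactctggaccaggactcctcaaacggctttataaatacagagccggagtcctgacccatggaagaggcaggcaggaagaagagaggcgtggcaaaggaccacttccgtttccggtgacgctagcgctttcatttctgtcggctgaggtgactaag
Psmc4 promoter, chr7:28050043-28050342, minus strand: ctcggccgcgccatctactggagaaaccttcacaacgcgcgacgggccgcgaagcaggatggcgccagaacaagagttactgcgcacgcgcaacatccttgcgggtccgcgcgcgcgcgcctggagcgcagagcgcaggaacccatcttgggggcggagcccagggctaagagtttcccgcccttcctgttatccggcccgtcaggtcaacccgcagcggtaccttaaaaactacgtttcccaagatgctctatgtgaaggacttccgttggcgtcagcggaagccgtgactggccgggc
Psmc6 promoter, chr14:45329574-45329873, plus strand: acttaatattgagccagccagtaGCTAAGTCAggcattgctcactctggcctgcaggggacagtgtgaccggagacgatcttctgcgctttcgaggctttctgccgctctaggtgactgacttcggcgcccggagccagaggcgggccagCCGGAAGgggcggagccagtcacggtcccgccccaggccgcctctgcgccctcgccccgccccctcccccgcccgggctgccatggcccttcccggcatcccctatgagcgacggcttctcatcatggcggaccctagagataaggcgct
Psmb5 promoter, chr14:54617946-54618245, minus strand: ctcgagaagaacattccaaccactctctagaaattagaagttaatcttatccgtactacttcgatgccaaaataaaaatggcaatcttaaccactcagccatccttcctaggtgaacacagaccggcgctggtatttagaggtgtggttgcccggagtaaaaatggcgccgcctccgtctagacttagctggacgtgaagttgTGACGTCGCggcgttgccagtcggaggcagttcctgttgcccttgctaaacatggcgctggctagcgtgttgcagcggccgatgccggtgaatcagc
The promoters of Psmb4 and Psmc4 held neither motif in this window, that of Psmc6 held both and that of Psmb5 held TGACNNNGC. TGACNNNGC was found in 6 of 39 member promoters (15.4%), in Psmb5, Psmb6, Psmc6, Psmd9, Psmd12 and Psme4, and in 14.2% of the 14452 promoters of genes measured here. CCGGAAG was found in 13 of 39 (33.3%), in Psmc1, Psmc2, Psmc6, Psmd2, Psmd4, Psmd6, Psmd11, Psmd12, Psmd13, Psme3, Psme4, Psmg1 and Psmg3, and in 13.8% of promoters of measured genes. CCGGAAG was in 9 of the 14 promoters of 19S cap genes and in 0 of the 11 promoters of 20S core genes, a split seen after the search and not tested. The median log2 change was 0.0825 in members with CCGGAAG and 0.0084 in those without, and -0.0091 with TGACNNNGC against 0.034 without. Of the other motifs searched, TGATGNAA, the composite site of ATF4, was in 2.56% of member promoters and 2.76% of those measured, and CCAAT in 35.9% and 38.2%. TTCNNNGAA, a STAT site, was in 7.69% and 7.29%, and the interferon-stimulated response element in 12.8% and 3.02%. Median log2 changes with and without the motif were 0.074 and 0.0062 for CCAAT. They were -0.1 and 0.053 for the interferon element (5 promoters), and 0.0062 and 0.0255 for TTCNNNGAA (3 promoters). TGATGNAA was in 1 member promoter only. The medians with and without a motif were not tested for any motif. Base composition was not matched between these sets, and a match is no more than the presence of these letters.

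The alpha ring gates the core, and none of its 7 genes passed. All 7 changes were positive as deposited and after median centring, while 2 turned negative after quantile normalization, and the median was 0.073. Psma1 had the smallest p of the ring. Its signals were 13.33, 13.40, 13.23, 13.39 and 13.49 in controls and 13.41, 13.64, 13.63, 13.75 and 13.76 in knockouts. Knockout replicates 2 to 5 lay above every control and replicate 1 lay among them, with a log2 change of 0.27 (SE 0.073, adjusted p = 0.0848). Without knockout replicate 1 the change was 0.33 and passed (adjusted p = 0.0170), in a fit that called 5.73% of all genes. With any other single array left out Psma1 did not pass (adjusted p up to 0.172). The brightest alpha gene, Psma3, read 13.68, 13.67, 13.58, 13.65 and 13.63 in controls and 13.67, 13.72, 13.85, 13.66 and 13.71 in knockouts. These overlapped, with a change of 0.079 (SE 0.042). Psma7 had 0.21 (SE 0.058, adjusted p = 0.0872), and Psma2, Psma4, Psma5 and Psma6 lay between 0.00082 and 0.073.

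The beta ring holds the 3 constitutive catalytic subunits, Psmb5, Psmb6 and Psmb7, beside structural ones. These 3 had the smallest changes of the ring. Psmb5, the chymotrypsin-like subunit, read 12.56, 12.55, 12.48, 12.54 and 12.65 in controls and 12.57, 12.58, 12.55, 12.49 and 12.54 in knockouts, a change of -0.014 (SE 0.036). Psmb6, the caspase-like subunit, read 12.94, 12.92, 12.89, 12.86 and 12.96 against 12.94, 12.91, 12.81, 12.94 and 12.95, a change of -0.0043 (SE 0.036). Psmb7, the trypsin-like subunit, read 13.36, 13.27, 13.25, 13.47 and 13.41 against 13.59, 13.24, 13.30, 13.27 and 13.37, a change of 0.00084 (SE 0.072). For all 3 the groups overlapped through most of their range.

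Psmb4, a structural beta subunit, was the 1 beta gene that passed. Its signals were 13.56, 13.73, 13.64, 13.55 and 13.33 in controls and 13.68, 14.30, 14.30, 14.26 and 14.09 in knockouts. Knockout replicates 2 to 5 lay above all controls, and knockout replicate 1 lay among them. The log2 change was 0.56 (SE 0.12, adjusted p = 0.0477), a 1.48-fold rise. A second probe set of Psmb4 gave the opposite sign, with 13.93, 13.86, 13.75, 13.94 and 13.999 in controls and 13.81, 13.72, 13.74, 13.77 and 13.84 in knockouts, a change of -0.12 (SE 0.049). It was the brighter of the pair on the control arrays, and with it in place of the first Psmb4 did not pass (adjusted p = 0.224). The mean of both probe sets gave 0.22 (adjusted p = 0.0744), and the call was also lost with quantile normalization (0.0530) and the replicate number as a block (0.0815). The probe set that rose carries the suffix by which Affymetrix marks possible cross-hybridisation, _x_at. Psmb1, Psmb2 and Psmb3 had changes of 0.021, -0.18 and -0.10. Psmb2 varied most (SE 0.18), with 11.24, 11.51, 11.16, 10.79 and 10.44 in knockouts, where replicates 4 and 5 lay below all controls (11.06 to 11.41).

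**Figure D2:**
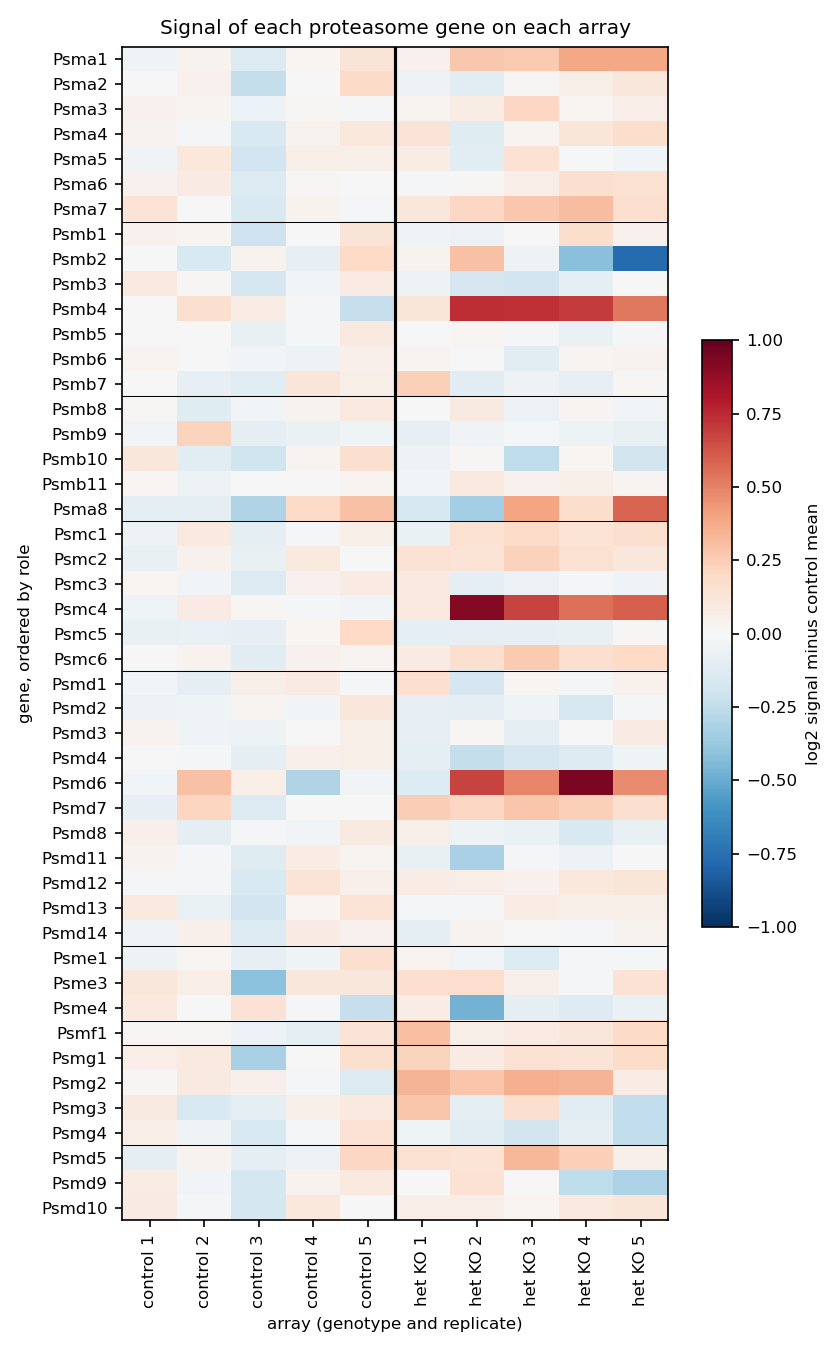
Log2 signal of each proteasome gene (rows, ordered by role and parted by lines) on each of the 10 arrays (columns, 5 controls left of the bar, 5 Hccs heterozygous knockouts right), less the control mean of that gene. Psmb4, Psmc4 and Psmd6 are high in knockout replicates 2 to 5 and near the controls in replicate 1, and control replicate 3 is low in many rows.

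The immune and tissue-specific subunits gave no call, and most gave low signals. Psmb8, the immune form of Psmb5, read 3.21, 3.08, 3.17, 3.24 and 3.30 in controls and 3.20, 3.29, 3.14, 3.23 and 3.17 in knockouts, below every array median. Psmb9, the immune form of Psmb6, read 2.20, 2.46, 2.15, 2.17 and 2.20 against 2.15, 2.20, 2.21, 2.18 and 2.16. Psmb10, the immune form of Psmb7, was brighter, with 9.12, 8.90, 8.80, 9.03 and 9.16 against 8.95, 9.01, 8.74, 9.02 and 8.82 and a change of -0.092 (SE 0.081). The groups overlapped for all 3. Psmb11, the thymus-specific beta subunit, read 1.92, 1.85, 1.90, 1.89 and 1.92 against 1.87, 1.99, 1.94, 1.96 and 1.93. Psma8, the germline alpha subunit, had a mean of 5.12 ± 0.24 in controls and 5.25 ± 0.38 in knockouts (SD, n = 5 each).

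The exchange of catalytic subunits was compared within each array as the log2 signal of the immune gene minus that of its constitutive counterpart. The Psmb8 minus Psmb5 difference shifted by 0.020 between genotypes, from -9.36 ± 0.067 to -9.34 ± 0.057 (SD, n = 5 each). Psmb9 minus Psmb6 shifted by -0.048 and Psmb10 minus Psmb7 by -0.093. None of the 3 shifts passed (exact two-sided permutation p = 0.635, 0.532 and 0.397, each 0.635 after adjustment over the 3). Since Psmb8 and Psmb9 gave signals under the array medians, the first 2 differences can show little but a change of Psmb5 or Psmb6. Of 14 measured genes that interferon induces with the immunoproteasome and antigen processing, limma called 0; before adjustment 1 reached a p under 0.05. That is 7.14% of the list, where 20.6% of all genes did. The median signal of the list was only 5.75, and this share was larger among brighter genes. It was 29.3% of genes above the median level and 33.3% of the 3648 brightest. The list was not compared with genes of similar signal, so 7.14% cannot be read as a shortfall. The median change of these 14 genes was 0.019. The 1 gene with a p under 0.05 was B2m, the light chain of class I histocompatibility molecules and the brightest of the list. It read 12.82, 12.88, 12.67, 12.60 and 12.86 in controls and 12.94, 13.13, 12.92, 13.12 and 12.97 in knockouts, with groups that did not overlap and a change of 0.25 (SE 0.070, adjusted p = 0.0930).

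**Figure D3:**
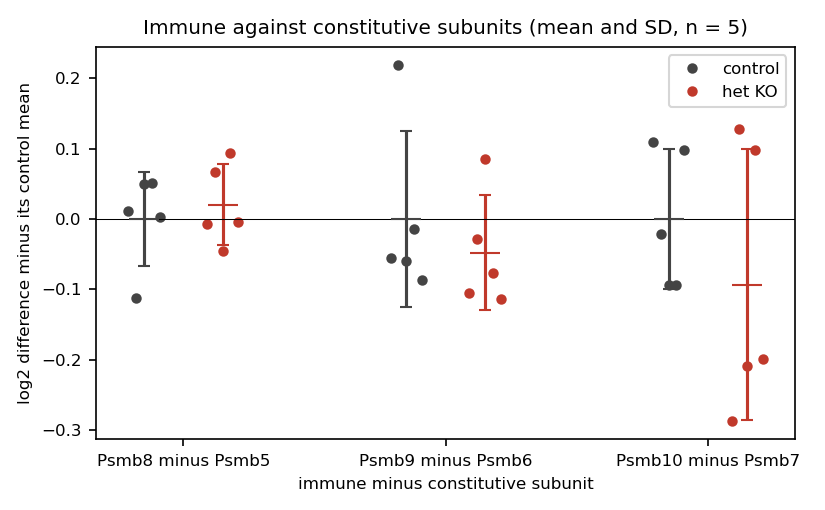
Within-array log2 difference between each immune beta subunit and its constitutive counterpart, less its control mean (vertical axis), for 5 control (grey) and 5 Hccs heterozygous knockout (red) arrays. Points are arrays, and bars give mean and SD. The genotypes overlap in all 3 pairs, with shifts of 0.020, -0.048 and -0.093.

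The 6 ATPases of the 19S cap, which unfold the substrate, had the highest median change of the roles with more than 1 gene, 0.13. It was 0.12 after quantile normalization and 0.15 after median centring. Psmc4 rose, and 5 did not pass. Psmc4 read 13.16, 13.29, 13.21, 13.18 and 13.17 in controls and 13.29, 14.12, 13.88, 13.75 and 13.80 in knockouts. The groups were separate, but knockout replicate 1 stood level with control replicate 2. The log2 change was 0.57 (SE 0.13, adjusted p = 0.0481), a 1.48-fold rise. The call was lost with quantile normalization (0.0556) and with the replicate number as a block (0.0815), and the mean of its probe sets gave 0.29 (adjusted p = 0.0641). The second Psmc4 probe set read 11.76, 11.71, 11.67, 11.78 and 11.82 in controls and 11.76, 11.80, 11.74, 11.69 and 11.83 in knockouts, a change of 0.017 (SE 0.040) with groups that overlapped.

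Psmc2, the brightest ATPase, read 13.68, 13.80, 13.68, 13.86 and 13.76 in controls and 13.90, 13.89, 13.98, 13.91 and 13.87 in knockouts, all of them above the controls. Its change was 0.16 (SE 0.042, adjusted p = 0.0856), and 0.055 (SE 0.050) in its second probe set, where the groups overlapped. The Psmc2 probe set used carries the suffix _x_at, as that of Psmb4 does. Psmc6, chosen after its values were seen, was the ATPase whose 3 bright probe sets all pointed up. The probe set that stands for it read 12.43, 12.46, 12.31, 12.47 and 12.45 against 12.51, 12.59, 12.68, 12.58 and 12.62, with separate groups and a change of 0.17 (SE 0.044, adjusted p = 0.0689). The dimmest of the 3 read 8.80, 8.83, 9.17, 8.97 and 8.95 in controls and 9.43, 9.99, 9.88, 9.95 and 9.73 in knockouts. All knockouts lay above all controls there, with a change of 0.85 (SE 0.11, limma adjusted p = 0.0161 over all single-symbol probe sets). The third probe set gave 0.28 (SE 0.072, adjusted p = 0.0812). Psmc1, Psmc3 and Psmc5 had changes of 0.11, -0.019 and -0.062.

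**Figure D4:**
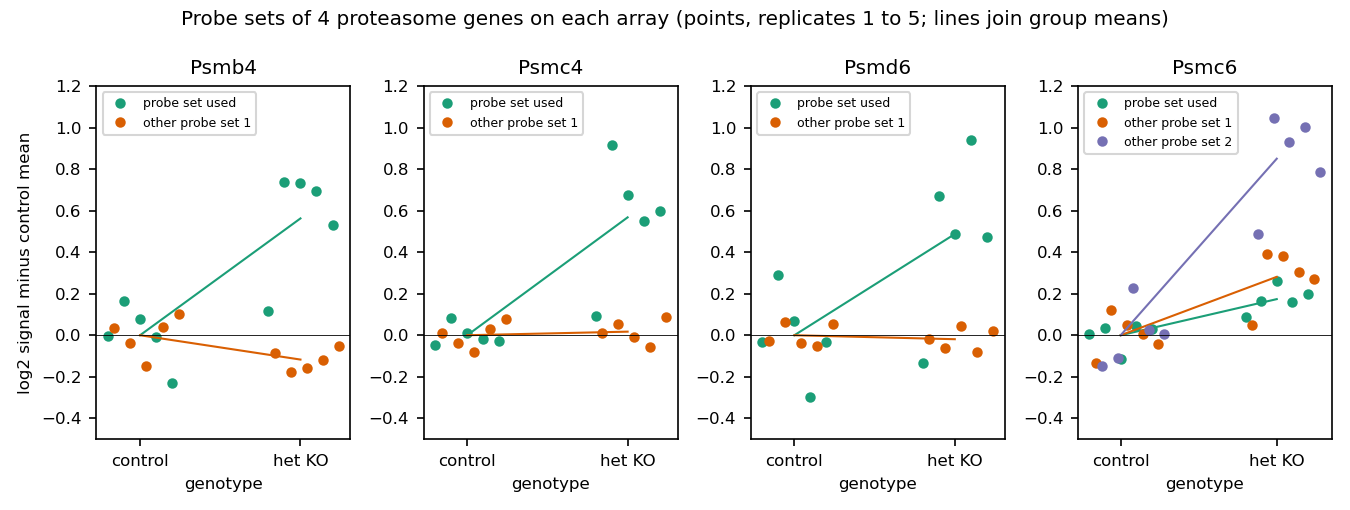
Log2 signal minus the control mean (vertical axis) for the probe sets with a mean signal above 8 of Psmb4, Psmc4, Psmd6 and Psmc6, on 5 control and 5 Hccs heterozygous knockout arrays. Points are arrays and lines join group means. In Psmb4, Psmc4 and Psmd6 the probe set used is up by 0.56, 0.57 and 0.49 while the other is at -0.12, 0.017 and -0.019, and in Psmc6 all 3 are up.

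None of the 11 non-ATPase genes of the cap passed, 5 had a positive and 6 a negative change, and the median was -0.0076. Psmd7, a scaffold partner of the deubiquitinase, had the smallest p. It read 10.78, 11.07, 10.73, 10.87 and 10.86 in controls and 11.11, 11.07, 11.14, 11.10 and 11.03 in knockouts. Control replicate 2 lay among the knockouts, and the change was 0.23 (SE 0.061, adjusted p = 0.0816), or 0.28 with an adjusted p of 0.0339 without that array. With any other single array left out Psmd7 did not pass (adjusted p up to 0.167). Psmd6, the brightest, read 12.89, 13.21, 12.99, 12.62 and 12.89 against 12.78, 13.59, 13.41, 13.85 and 13.39. Knockout replicates 2 to 5 were above all controls and replicate 1 was within them, with a change of 0.49 (SE 0.18, adjusted p = 0.179). Its second probe set showed -0.019 (SE 0.038). Without knockout replicate 1 the first probe set of Psmd6 gave 0.64 and passed (adjusted p = 0.0278), in a fit that called 5.73% of all genes. With any other single array left out Psmd6 did not pass (adjusted p up to 0.317).

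Psmd14, the deubiquitinase of the cap, had a change of -0.0076 (SE 0.047). The largest scaffold subunits, Psmd1 and Psmd2, had changes of 0.011 (SE 0.061) and -0.079 (SE 0.043). The ubiquitin receptor Psmd4 had -0.13 (SE 0.046, adjusted p = 0.151), and 0.095 in its second bright probe set. Psmd11 had -0.095, and its 3 other bright probe sets gave 0.23, -0.26 and -0.17. The rest, Psmd3, Psmd8, Psmd12 and Psmd13, lay between -0.058 and 0.082.

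Activators open the core in place of the cap, and none of 3 passed. Psme1, a subunit of the interferon-inducible activator, read 12.48, 12.56, 12.45, 12.49 and 12.69 in controls and 12.57, 12.50, 12.40, 12.52 and 12.52 in knockouts, a change of -0.035 (SE 0.051). Psme4, the activator of nuclear and germline proteasomes, read 12.06, 11.96, 12.11, 11.94 and 11.73 against 12.04, 11.49, 11.86, 11.83 and 11.89. Its groups overlapped, with a change of -0.14 (SE 0.10), and 1 of its 2 other bright probe sets gave 0.20. Psme3, the nuclear activator, had 0.10 (SE 0.10). Psmf1, an inhibitor of the core in vitro, read 8.77, 8.77, 8.71, 8.67 and 8.89 in controls and 9.06, 8.82, 8.84, 8.87 and 8.95 in knockouts. Its change of 0.15 (SE 0.057, adjusted p = 0.185) did not pass, and its second bright probe set gave 0.22.

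Chaperones assemble the alpha ring, and Psmg2, 1 of the 4 Psmg genes, came closest to the threshold without passing. It read 11.40, 11.47, 11.44, 11.37 and 11.25 in controls and 11.72, 11.67, 11.74, 11.72 and 11.46 in knockouts. Knockout replicates 1 to 4 lay above all controls, and the change was 0.28 (SE 0.064, adjusted p = 0.0550), with 0.18 (SE 0.069) in its second probe set. Without knockout replicate 5 it passed (0.33, adjusted p = 0.0288), as it did after median centring (adjusted p = 0.0469), among genes above the median level (0.0405) and with array weights (0.0288). Other fits did not call it, such as the replicate number as a block (adjusted p = 0.0735), quantile normalization (0.0794) and the mean of probe sets (0.0946). With any other single array left out it did not pass either, with adjusted p up to 0.123. Psmg1, the partner of Psmg2, had 0.15 (SE 0.084), Psmg3 0.00071 and Psmg4 -0.14 (SE 0.060). Of the 3 chaperones of the ATPase ring none passed. Psmd5 read 9.18, 9.32, 9.20, 9.22 and 9.49 against 9.44, 9.42, 9.61, 9.52 and 9.33, a change of 0.18 (SE 0.071, adjusted p = 0.191). Psmd10, also called gankyrin, read 10.08, 9.99, 9.83, 10.10 and 10.0005 against 10.07, 10.06, 10.02, 10.09 and 10.12, a change of 0.074. Psmd9 had -0.085 (SE 0.092).

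Among members with more than 1 probe set above a log2 signal of 8, probe sets of the same gene often differed. There were 16 such members with 20 further probe sets, of which 14 had the sign of the probe set used and 6 the opposite sign. The median distance between the log2 changes was 0.11, and 4 distances exceeded 0.5, those of Psmb4, Psmc4, Psmd6 and the dimmest of Psmc6. Probe positions within the transcripts were not used here, and a difference between transcript ends was not tested.

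Of 15 measured cofactors, assembly factors and regulators of the proteasome limma called 0. Before adjustment 3 reached a p under 0.05 in the higher direction (Sem1, Uchl5 and Usp14) and 3 in the lower (Pomp, Ubr4 and Stat3). That is 40.0% of the list, where 20.6% of all genes (13.2% higher, 7.48% lower) and 33.3% of the 3648 brightest did. The list is bright, with a median signal of 10.68. Its median change was -0.051, and the largest was that of Ubr4, -0.50 (SE 0.17, adjusted p = 0.151). Nfe2l1 read 7.71, 7.34, 7.59, 7.48 and 7.79 in controls and 7.48, 7.64, 7.20, 7.23 and 7.30 in knockouts, a change of -0.21 (SE 0.11, adjusted p = 0.287). Nfe2l2, the related factor of the oxidative stress response, read 10.70, 10.59, 10.76, 10.76 and 10.63 against 10.76, 10.80, 10.58, 10.58 and 10.62, a change of -0.022 (SE 0.057). Groups overlapped for both factors. Sem1, a small cap subunit outside the naming rule of the members, was the brightest of this list. It read 12.88, 13.26, 13.24, 13.17 and 13.12 in controls and 13.27, 13.52, 13.57, 13.50 and 13.17 in knockouts. The groups overlapped, and the change was 0.27 (SE 0.098, adjusted p = 0.161). Of 13 ubiquitin enzymes, shuttles and p97 genes limma called 0. Before adjustment 1 reached a p under 0.05 in the higher (Ufd1) and 2 in the lower direction (Vcp and Ubqln1). That is 23.1% of the list, where 20.6% of all genes and 33.3% of the 3648 brightest did. The median signal of these 13 genes was 10.28 and their median change -0.0064. Vcp, the p97 segregase and the brightest of them, read 13.50, 13.42, 13.59, 13.41 and 13.40 in controls and 13.39, 13.25, 13.29, 13.24 and 13.37 in knockouts. All knockouts lay below the controls, with a change of -0.16 (SE 0.049, adjusted p = 0.124).

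Single arrays moved these results. Without knockout replicate 1 there were 5 members called, Psma1, Psmb4, Psmc4, Psmc6 and Psmd6, where 5.73% of all genes were called. Without any 1 of the other 9 arrays Psmb4 and Psmc4 did not pass, with adjusted p up to 0.110, and 0.577% to 2.35% of all genes were called. Control replicate 3 had the lowest members, with a median 0.099 under the control means. Without it the median change of the members was -0.011, with 22 positive and 25 negative, and 0 members passed. That array had the lowest 18S 5' signal of the controls, 8.06, and the part of either in the result was not tested.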

How the data were processed

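RNA of 10 pools of embryonic hearts was measured on 1 array each. The authors deposited log2 signals per probe set, made with RMA and Partek per the submitters' processing notes, which give no versions. Their range, 0.602 to 16.6, shows the log2 scale. RMA brings arrays to a common distribution, so a change of total RNA cannot be seen. Detection calls and batches were not analysed here.

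Of 45101 probe sets 34945 carried 1 symbol, 932 several and 9160 none, and 64 were controls. The brightest single-symbol probe set stood for each of 18193 genes. Genotypes, from the labels, were compared with limma 3.58.1 in R 4.3.3 (genotype only, no filter, two-sided). The fit was tested on simulated data. Single values were compared by exact permutation over all 252 splits. The main fit did not pair the arrays by replicate number, and the replicate block is an alternative. Correlations of same-numbered deviations ran from -0.0911 to 0.0767, and only replicate 4 was the best match of its number both ways. Such correlations cannot settle whether same-numbered pools shared litters.

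Values on every array are given for members that passed, the member of each role with the smallest p, the brightest of each role, the genes of the immune pairs, Nfe2l1, Nfe2l2, and up to 6 genes that passed plus the brightest that did not in the lists of cofactors, of shuttles and ubiquitin enzymes and of immune-induced genes. Psmb2, Psmc6 and other probe sets were added after their values were seen. The members and lists were chosen with earlier results of these data known. List genes without a single-symbol probe set were not analysed here. The alternatives were a replicate block, quantile normalization, median centring, a level filter, other choices of probe set, eBayes options, array weights, a threshold of 0.01 and each array left out, with 3 more added after seeing the data and marked in the closing section. Figures used matplotlib 3.10.9 (Python 3.11.15).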

Additional observations from a re-analysis of the deposited data

Results flagged for a closer look

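Of the 94 groups of 5 arrays checked (47 members, each in both genotypes), 7 held an array far from the other 4, where chance gives about 1 in 20 groups. In controls, Psmb9 was high in replicate 2 (2.456, nearest 2.204), Psmc6 was low in replicate 3 (12.31, nearest 12.43) and Psme3 was low in replicate 3 (9.07, nearest 9.543). In knockouts, Psmc1 was low in replicate 1 (11.44, nearest 11.65), Psmd11 was low in replicate 2 (12.42, nearest 12.67), and Psmc5 was high and Psmg2 low in replicate 5 (12.01, nearest 11.92, and 11.46, nearest 11.67). Psmb9 lies below the array medians.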

How the results depend on the processing

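The count of members called higher was 2 and became 0 with the replicate block, with quantile normalization, at a threshold of 0.01, and, added after seeing the data, without the arrays numbered 3 of both genotypes and with the brightest probe set by control arrays. It was 1 with the mean of probe sets, the most variable probe set and every probe set (Psmc6 each time), 1 without _x_at and _s_at probe sets (Psmc4, added after seeing the data), and 6 with array weights. It was 3 after median centring and among genes above the median level (Psmb4, Psmc4 and Psmg2). With each array left out it ran from 0 to 5. No member was called lower in any of these fits. All genes called, 469, became 36 with the replicate block, 759 among genes above the median level, 945 with array weights, 14 at the threshold of 0.01 and 30 without the arrays numbered 3, and ran from 105 to 1042 with each array left out. Of the cofactors, 1 was called with the most variable probe set and with every probe set (Ecpas, 0.81), and 0 to 2 with each array left out (Uchl5 higher and Stat3 lower without knockout replicate 1). Of shuttles and ubiquitin enzymes 2 were called in those fits on other probe sets (Faf1 and Ubqln1, both higher), and 1 without _x_at and _s_at probe sets (Ubqln1). With each array left out that count stayed at 0, as did the count of immune-induced genes. On the probe sets of the main fit Ecpas, Faf1 and Ubqln1 had changes of the opposite sign (-0.092, -0.036 and -0.10), none past the threshold. The log2 change of Hccs was -0.55 with the replicate block and -0.59 without the arrays numbered 3, neither past the threshold (limma adjusted p = 0.0735 and 0.0714). It ran from -0.60 to -0.48 with each array left out, not past the threshold without control replicates 2 and 3 and knockout replicates 2 and 4. The pair shifts then ran from -0.0082 to 0.037 for Psmb8, from -0.081 to 0.0068 for Psmb9 and from -0.15 to -0.045 for Psmb10. Other choices of probe set moved the Psmb8 shift more. It was 0.10 with the mean of probe sets and 0.19 with the most variable one (exact permutation adjusted p = 0.405 and 0.532). A second, dimmer Psmb8 probe set, with a change of 0.17 (SE 0.14), enters there.

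The replicate block changed no other call than those named here. The rise of Psmb4 turned to -0.12 with the probe set brightest in controls, and likewise without _x_at and _s_at probe sets. Over all 47 members, 6 changes turned sign with quantile normalization, 4 each with median centring, the mean of probe sets and the most variable probe set, 5 with array weights, 8 without the arrays numbered 3, and 1 to 7 with each array left out. Among the 20 members named by the rule, changes not past the threshold turned sign in these cases: Psmb7 (-0.027) and Psmb8 (-0.022) with quantile normalization, Psmb5 (0.0019) and Psmb6 (0.011) with median centring, Psma3 (-0.21) with the mean of probe sets, Psma1 (-0.067) and Psma3 (-0.49) with the most variable probe set, Psmb6 (0.00012), Psmb7 (-0.037) and Psmb8 (-0.0056) with array weights, and Psmb6 (0.014) and Psmb7 (-0.013) without the arrays numbered 3. With each array left out, the changes of those of the 20 that turned sign ran from -0.033 to 0.0095 for Psmb5, -0.017 to 0.021 for Psmb6, -0.058 to 0.031 for Psmb7, -0.023 to 0.030 for Psmb8, -0.074 to 0.0034 for Psmb9 and -0.055 to 0.0046 for Psme1. The cause of these turns of sign, and of the calls lost or gained without an array, was not tested. The number of arrays limits the precision.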
